A study of Rattus norvegicus with 7 samples.

Results

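Genes of phospholipase A2 and of eicosanoid synthesis were examined in rat hippocampus and hypothalamus: Pla2g6, Pla2g4a, Ptgs1, Ptgs2, Ptgds, Ptges, Ptges3, Hpgds, Alox5 and Alox15. These 10 genes were taken by symbol from 16511 symbols of the 2 expression tables, counted after loci without an OK status were left out. Where a symbol had several loci the locus with the highest mean was used. Of the 10, 9 were read in hippocampus and 9 in hypothalamus, with 8 in common. Ptgds was not analysed here in hippocampus, nor Ptges3 in hypothalamus. The libraries came from male Sprague Dawley rats, aged 2 months when assigned to their diet, which received the omega-3 fatty acid docosahexaenoic acid (DHA) for 6 weeks. There were 4 libraries of hippocampus and 3 of hypothalamus, each from dissected whole tissue. All 7 shared the DHA diet, and chow-fed rats were not analysed here, which leaves the diet's effect without an estimate. The labels do not say whether the libraries of a tissue came from separate animals, so the spread among them may be technical. Values are the authors' FPKM, in which fragment numbers are divided by transcript length and by library size, and the sequencing depth behind them is unknown.

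Phospholipases A2 cut fatty acids such as arachidonic acid and DHA out of membrane phospholipids. Cyclooxygenases (Ptgs1, Ptgs2) turn freed arachidonic acid into an unstable prostaglandin intermediate, from which terminal synthases make prostaglandin D (Ptgds, Hpgds) or prostaglandin E (Ptges, Ptges3). Lipoxygenases (Alox5, Alox15) add oxygen to the same acids and open the routes to leukotrienes and to oxygenated DHA products. In brain, prostaglandin E is known for its part in fever and synaptic signalling, and prostaglandin D for its part in sleep.

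The results turn on both cyclooxygenase genes, which differed between the tissues in opposite directions, and on Ptgds, ranked 1 among 16163 hypothalamic symbols read. Their promoters are therefore shown, as given by RefSeq for assembly GRCr8, from 250 bases before to 50 bases after the annotated start. The windows are chr13:64713813-64714112 on the plus strand for Ptgs2, chr3:39981169-39981468 on the plus strand for Ptgs1 and chr3:28682929-28683228 on the minus strand for Ptgds, and each is written 5′ to 3′ along its gene. Capitals mark matches on either strand to an E-box (CACGTG), a C/EBP-like motif (TTNNGCAAT), a TATA box (TATAAA), a GC box (GGGCGG) or a CRE half-site (TGACG).
Ptgs2: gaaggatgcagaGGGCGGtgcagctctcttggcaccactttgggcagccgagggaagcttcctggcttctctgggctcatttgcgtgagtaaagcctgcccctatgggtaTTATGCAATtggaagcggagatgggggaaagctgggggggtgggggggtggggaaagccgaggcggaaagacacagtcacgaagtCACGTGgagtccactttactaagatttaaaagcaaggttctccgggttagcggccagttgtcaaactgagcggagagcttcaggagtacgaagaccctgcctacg
Ptgs1: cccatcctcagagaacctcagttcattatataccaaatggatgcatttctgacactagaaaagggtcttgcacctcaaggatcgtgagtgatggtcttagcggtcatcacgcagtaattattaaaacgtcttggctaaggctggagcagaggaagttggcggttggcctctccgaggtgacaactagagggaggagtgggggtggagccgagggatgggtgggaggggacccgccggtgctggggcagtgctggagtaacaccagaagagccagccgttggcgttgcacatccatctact
Ptgds: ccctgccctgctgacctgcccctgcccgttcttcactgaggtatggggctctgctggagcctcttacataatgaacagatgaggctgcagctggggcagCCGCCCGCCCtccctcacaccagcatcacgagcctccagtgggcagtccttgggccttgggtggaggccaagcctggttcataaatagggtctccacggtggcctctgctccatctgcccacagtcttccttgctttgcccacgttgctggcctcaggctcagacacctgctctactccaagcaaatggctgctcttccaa
Promoters were present in that table for 8 of the 10 genes. The Ptgs2 window held an E-box beginning 55 bases before the start, a C/EBP-like match beginning 140 bases before it and a GC box beginning 238 bases before it. Of 33469 windows of the same length, 6.42% held an E-box, 2.33% a C/EBP-like match and 33.1% a GC box. None of the 5 motifs was found in the Ptgs1 window. The Ptgds window held overlapping matches to the GC box, beginning 151 and 147 bases before the start. A TATA box was in 14.2% and a CRE half-site in 21.2% of all windows, and neither was in any of the 3 shown. These matches describe the letters only.

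The tissue labels were checked on marker genes first. All 5 hippocampal markers listed, among them Slc17a7 and Neurod6, were higher in every hippocampus library, and all 5 hypothalamic markers, among them Avp and Pomc, were higher in every hypothalamus library. Library sums ran from 370020 to 391349 FPKM in hippocampus and from 443335 to 471484 FPKM in hypothalamus. Because each tissue has its own table, levels were compared after each library was rescaled, so that the 15805 symbols common to the tables summed to 1000000, and tissue and table cannot be told apart. No p-value was computed across tables. Exact permutation of 4 against 3 libraries could not give a two-sided p below 0.0571 in any case. A call required that the libraries of the tissues did not overlap and that mean log2(rescaled FPKM + 1) differed by a factor of 2 or more. In whole tissue, fewer cells of a type and less RNA per cell cannot be told apart.

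**Figure D1:**
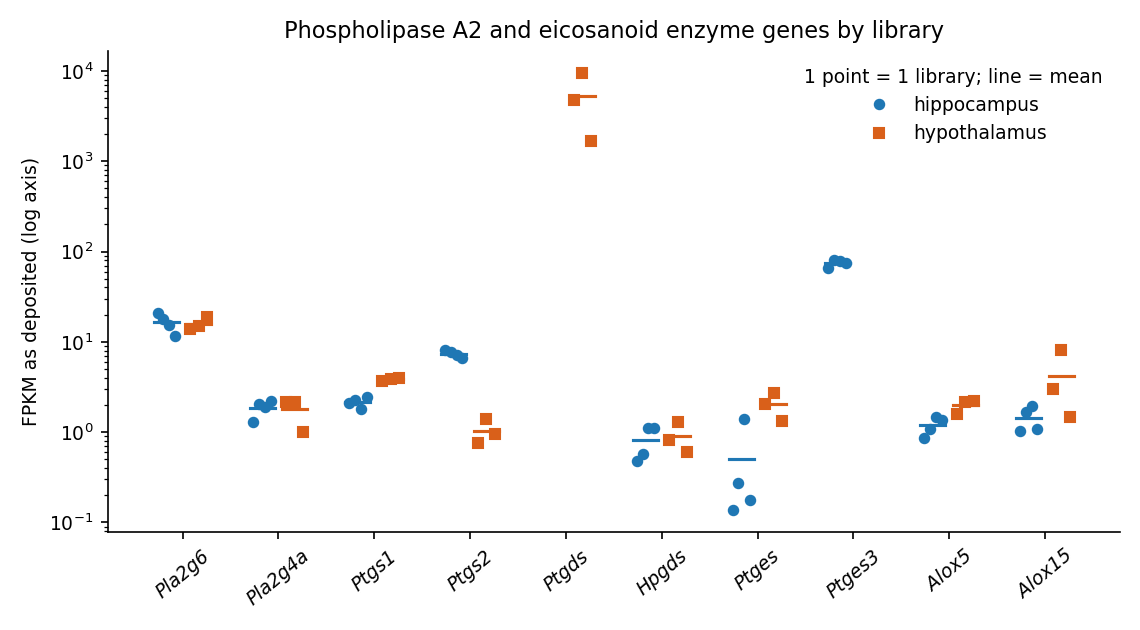
FPKM as deposited (log axis) of the 10 genes, with 1 point for each library (circles for hippocampus, squares for hypothalamus) and a line at the mean. Ptgds lies between 1685 and 9568 FPKM in hypothalamus, Ptges3 between 65.5 and 80.4 FPKM in hippocampus, and most of the others lie below 10 FPKM.

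Levels of the 10 genes spanned several orders of magnitude. In hippocampus the order by mean FPKM was Ptges3, Pla2g6, Ptgs2, Ptgs1, Pla2g4a, Alox15, Alox5, Hpgds and Ptges. Ranges did not overlap between Ptges3 and Pla2g6, Pla2g6 and Ptgs2, or Ptgs2 and Ptgs1, whereas each adjoining pair from Ptgs1 down to Ptges overlapped in range. In hypothalamus the order was Ptgds, Pla2g6, Alox15, Ptgs1, Ptges, Alox5, Pla2g4a, Ptgs2 and Hpgds. There, Ptgds lay above Pla2g6 and Pla2g6 above Alox15 in all 3 libraries without overlap, and so did Ptgs1 above Ptges, while the other neighbouring pairs overlapped. Ptgs2 thus stood at rank 3 of 9 in hippocampus and at rank 8 of 9 in hypothalamus.

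Of the 8 genes in both tables, 7 averaged 1 FPKM or more in hippocampus, hypothalamus or both and were compared, and Hpgds did not reach that level. Ptgs2 was the single gene of the 7 called, higher in hippocampus, where 14.5% of 10736 compared symbols were called in that direction. None was called higher in hypothalamus, against 13.4% of all symbols. By separation of the libraries alone, 1 gene (Ptgs2) was higher in hippocampus and 1 (Ptgs1) in hypothalamus, against 28.2% and 24.4% of all symbols, and 5 overlapped. Counts of 1 in 7 are near those shares and say nothing particular about the set. The median difference of the 7 was −0.36 on the log2 scale towards hypothalamus, beside 0.05 for all compared symbols. Over all symbols, 1560 were called higher in hippocampus and 1439 in hypothalamus after rescaling, against 928 and 1819 in FPKM as deposited. The count of called genes rose to 2 without hippocampus replicate 3, with Ptges added, and to 3 of 8 compared without hypothalamus replicate 3, with Ptges and Alox15 added. Without the latter library, 1486 of 10737 symbols were called higher in hippocampus and 1567 in hypothalamus.

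**Figure D2:**
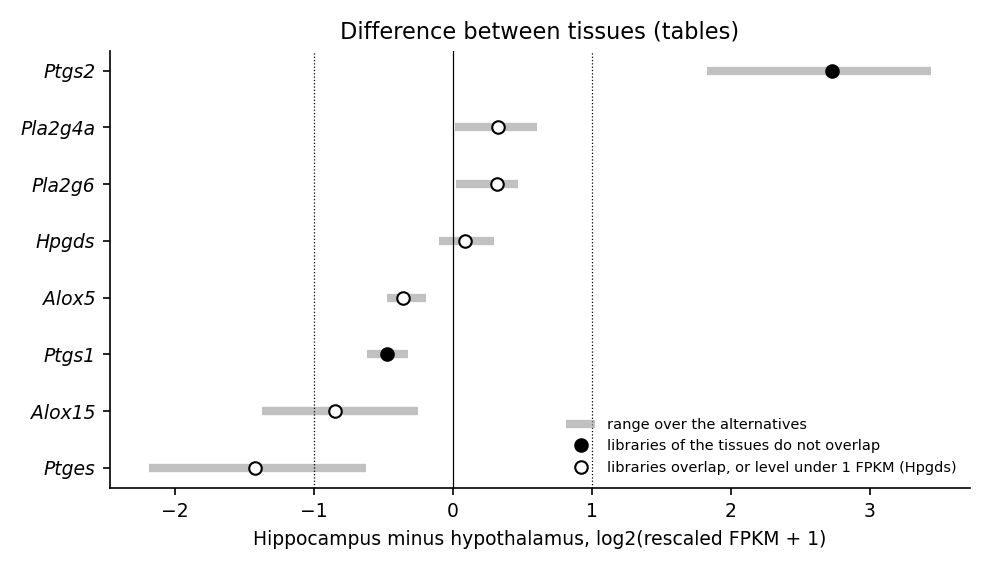
Difference between hippocampus and hypothalamus in mean log2(rescaled FPKM + 1) for the 8 genes found in both tables (points), with the range over all alternatives as grey bars and dotted lines at 2-fold. Ptgs2 lies at 2.73 with a range of 1.83 to 3.44, and Ptgs1 at −0.47 is the other gene whose libraries did not overlap.

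The phospholipases that release fatty acids were at like levels in both tissues. Pla2g6 encodes the calcium-independent phospholipase A2 that has been tied to DHA release in brain. It read 20.8, 17.9, 15.4 and 11.5 FPKM in hippocampus replicates 1 to 4 and 13.9, 15.0 and 18.7 FPKM in hypothalamus replicates 1 to 3. The tissues overlapped, at means of 16.4 ± 3.94 (SD, n = 4) and 15.9 ± 2.52 FPKM (SD, n = 3). After rescaling the difference was 0.31 on the log2 scale, less than the larger SD among replicates of 0.36. Without hippocampus replicate 4, its lowest library, the rescaled values no longer overlapped and were higher in hippocampus.

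Pla2g4a encodes the calcium-dependent cytosolic enzyme with a preference for arachidonic acid. It was far less abundant, at 1.29, 2.07, 1.90 and 2.19 FPKM in hippocampus and 2.18, 2.18 and 1.01 FPKM in hypothalamus. The lowest library of each tissue, replicate 1 in hippocampus and replicate 3 in hypothalamus, lay apart from the rest, and the tissues overlapped. Within a library, Pla2g6 exceeded Pla2g4a by 5.26 to 16.1 times in hippocampus and by 6.38 to 18.6 times in hypothalamus. Without hippocampus replicate 1 the rescaled libraries of Pla2g4a no longer overlapped, and were higher in hippocampus.

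The cyclooxygenase genes gave the clearest separation. Ptgs2, the inducible enzyme, which forebrain neurons also express at rest and raise with activity, read 8.20, 7.72, 7.09 and 6.65 FPKM in hippocampus and 0.756, 1.39 and 0.953 FPKM in hypothalamus. Every hippocampus library lay above every hypothalamus library, at means of 7.41 ± 0.682 (SD, n = 4) and 1.03 ± 0.324 FPKM (SD, n = 3). On the log2 scale of rescaled values the difference was 2.73, or 6.62-fold, and the larger SD among replicates was 0.32. It remained between 1.83 and 3.44 under all 16 alternatives that could change it.

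Ptgs1, the constitutive enzyme, found in brain largely in microglia, went the other way. Its hippocampus libraries read 2.11, 2.26, 1.82 and 2.46 FPKM and its hypothalamus libraries 3.68, 3.92 and 3.93 FPKM. All 3 hypothalamus libraries were higher than all 4 of hippocampus, by 0.47 on the log2 scale of rescaled values, which is under the 2-fold limit for a call. Its replicates were close, with a larger SD of 0.14. Of 10 microglial markers, all above 0 in both tissues, 5 were likewise higher in every hypothalamus library and 1 in every hippocampus library, beside 24.4% and 28.2% of all symbols. Their summed level ran from 150 to 216 FPKM in hippocampus and from 311 to 329 FPKM in hypothalamus, in FPKM as deposited. After rescaling, the median difference of the list was −0.49 on the log2 scale. C1qb differed most and has 2 loci in the hippocampus table and 1 in the hypothalamus table, whereas Cx3cr1 was higher in every hippocampus library. The part of microglial content in the Ptgs1 difference was not tested.

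A ratio of both genes within a library does not depend on how the tables were scaled. Ptgs2 exceeded Ptgs1 by 3.89, 3.41, 3.89 and 2.71 times in the hippocampus libraries, a mean of 3.47 ± 0.560 (SD, n = 4). In hypothalamus the ratio was 0.205, 0.355 and 0.242, a mean of 0.267 ± 0.0777 (SD, n = 3), so that Ptgs1 was the more abundant cyclooxygenase transcript there. This ratio was chosen after the values were seen. Measured against Ptgs1 in the same way, 45.6% of 10735 symbols were higher in every hippocampus library, so the separation by itself is common.

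Ptgs2 had 2 loci in the hippocampus table and 1 in the hypothalamus table. The lower hippocampal locus, XLOC_008425, read 0, 6.64, 4.02 and 13.2 FPKM in replicates 1 to 4. Replicate 1 was thus listed at 0 where replicate 4 exceeded its own value at the main locus, XLOC_008071. Replicate 1 stood apart in this way beyond Ptgs2. Of 1848 lower loci of hippocampal symbols, 171 were at 0 in replicate 1 while replicates 2 to 4 each reached at least 1 FPKM, against at most 2 for any other hippocampus library. In hypothalamus, 113 of 1575 lower loci were at 0 in replicate 1 alone, against at most 2. Without replicate 1 of both tissues, Ptgs2 was still called higher in hippocampus, at 2.53 on the log2 scale. In the table's row order the main locus is followed by Pdc and Tpr, which RefSeq places on the plus strand like Ptgs2. The lower locus stands between Pla2g4a and Prg4, which RefSeq places on the minus strand. RefSeq also has a minus-strand noncoding gene beside Ptgs2, named Ptgs2os. The strand setting is not given in the sources used here, so reads of Ptgs2 and of an antisense partner cannot be told apart. With both loci summed, hippocampus read 8.20, 14.4, 11.1 and 19.8 FPKM, a mean of 13.4 ± 4.98 (SD, n = 4), and the difference from hypothalamus was 3.44 on the log2 scale.

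**Figure D3:**
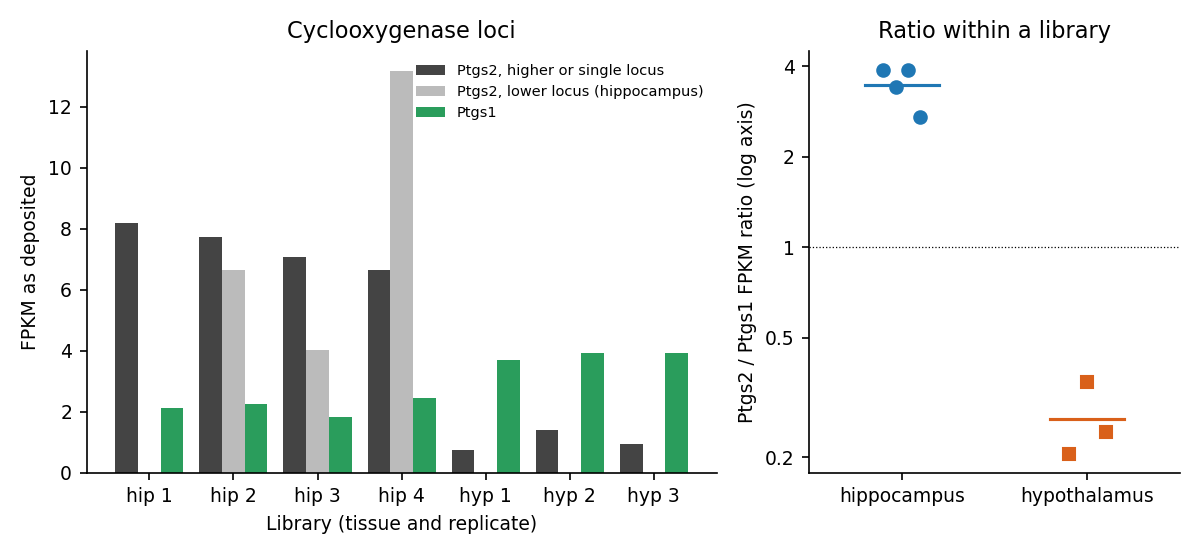
Left, FPKM as deposited of the Ptgs2 loci and of Ptgs1 in each library (hip, hippocampus; hyp, hypothalamus; the number is the replicate). Right, the Ptgs2 to Ptgs1 ratio in each library (log axis, line at the mean), which is above 1 in the 4 hippocampus libraries and below 1 in the 3 hypothalamus libraries.

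Since Ptgs2 belongs to the genes that neuronal activity induces, other immediate early genes were set beside it. Of 10 compared, 5 (Egr2, Egr3, Arc, Npas4 and Nr4a1) were called higher in hippocampus, Fos was higher in every hypothalamus library without reaching 2-fold, and 4 overlapped. Over all symbols, 14.5% were called higher in hippocampus and 24.4% were higher in every hypothalamus library. The list's mean level was 4.37 in hippocampus replicate 1 against 3.42 to 3.72 in the other hippocampus libraries, in log2(FPKM + 1). Ptgs2 was highest in replicate 1 as well at its main locus, by a small margin. With both loci summed, replicate 1 was instead lowest, at 8.20 FPKM against 14.4, 11.1 and 19.8 FPKM in replicates 2 to 4. Its lower locus was listed at 0 in that library alone. The part of neuronal activity in the Ptgs2 difference was not tested.

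The synthase genes for prostaglandin D differed from each other by orders of magnitude. Ptgds encodes the lipocalin-type synthase, a secreted protein of cerebrospinal fluid that is known from meninges, choroid plexus and oligodendrocytes. It read 4724, 9568 and 1685 FPKM in hypothalamus replicates 1 to 3, a mean of 5326 ± 3976 FPKM (SD, n = 3), and ranked 1 among 16163 symbols. Its libraries differed by up to 5.68 times, with an SD of 1.26 on the log2 scale, against a median of 0.25 for all 11483 loci with at least 1 FPKM.

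Hpgds encodes the glutathione-dependent synthase of mast cells and microglia. It read 0.477, 0.569, 1.12 and 1.10 FPKM in hippocampus and 0.823, 1.28 and 0.597 FPKM in hypothalamus, and the tissues overlapped. In hypothalamus, Ptgds exceeded it by 5737, 7456 and 2820 times within a library. Of 7 mast cell markers found, Kit and Hdc, which brain neurons also express, were the only ones to reach 1 FPKM. The defining markers Cpa3, Tpsab1, Tpsb2, Cma1 and Ms4a2 were each at or below 0.29 FPKM in all 7 libraries, with Cma1 at 0 throughout hypothalamus. The summed level of the list ran from 57.2 to 84.4 FPKM in hippocampus and from 29.7 to 35.8 FPKM in hypothalamus.

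For prostaglandin E, the inducible membrane-bound synthase Ptges, which is coupled to Ptgs2 in inflamed tissue, was low. It read 0.137, 0.275, 1.41 and 0.179 FPKM in hippocampus and 2.07, 2.72 and 1.34 FPKM in hypothalamus. Hippocampus replicate 3 alone reached into the hypothalamic range, and the other 3 hippocampus libraries lay below all of hypothalamus. The rescaled difference was −1.43 with all libraries and −1.86 on the log2 scale without hippocampus replicate 3, in which case Ptges was called higher in hypothalamus. It was also called without hypothalamus replicate 3, at −1.67, and without the library richest in meninges markers of each tissue, hippocampus replicate 3 and hypothalamus replicate 2, at −1.65.

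Ptges3 encodes the cytosolic synthase, better known as a cochaperone of the heat shock protein HSP90. It was steady in hippocampus, at 65.5, 80.4, 79.1 and 75.2 FPKM, a mean of 75.1 ± 6.76 (SD, n = 4), and exceeded Ptges by 56.0 to 477 times. The wide range of that ratio came from Ptges. RefSeq lists a pseudogene of Ptges3, and any reads shared with such copies, which were not measured, would make its value uncertain. Ptges2, a further membrane-associated synthase added after its values were seen, read 18.1 to 23.4 FPKM in hippocampus and 21.6 to 27.2 FPKM in hypothalamus.

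The lipoxygenase genes were both low. Alox5, which begins leukotriene synthesis, read 0.852, 1.07, 1.47 and 1.35 FPKM in hippocampus and 1.59, 2.15 and 2.21 FPKM in hypothalamus. In FPKM as deposited every hypothalamus library was higher, but after rescaling the lowest of them overlapped with hippocampus, and the difference was −0.36 on the log2 scale with a larger SD of 0.27.

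Alox15, whose product oxygenates both arachidonic acid and DHA, read 1.02, 1.68, 1.94 and 1.09 FPKM in hippocampus. In hypothalamus it read 3.02, 8.20 and 1.48 FPKM, so that replicate 2 stood highest and replicate 3 fell within the hippocampal range. The difference of −0.85 on the log2 scale was smaller than the SD among the hypothalamus libraries of 1.13. It ranged from −1.38 without hypothalamus replicate 3, when Alox15 was called, to −0.25 without hypothalamus replicate 2, and was −0.39 without hippocampus replicate 3 and hypothalamus replicate 2 together. Alox15 has close relatives such as Alox12 and Alox12e, and any reads shared among them, which were not measured, would make low values uncertain.

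The hypothalamus libraries differed in the same order for several of these genes. In Ptgds, Alox15, Ptges, Hpgds and Pla2g4a, 5 of the 9 genes read there, replicate 2 was highest and replicate 3 lowest, although for Pla2g4a replicates 1 and 2 were nearly equal. Among the 8 with at least 1 FPKM, 4 had this order, against 8.9% of 10757 hypothalamic symbols. Ptgds and Alox15 (5.52 times) also differed at least 3-fold between replicates 2 and 3, which held for 1.57% of symbols. The order was noticed in the data, so it is a description. Pla2g6, Ptgs1, Ptgs2 and Alox5 did not have it.

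Markers of the meninges, the membranes around the brain, had the same order. Of 10 such markers found in hypothalamus, 9 read highest in replicate 2 and lowest in replicate 3, and Col1a2 was at 0. Their summed level was 262, 535 and 98.6 FPKM in replicates 1 to 3. In hippocampus, where Col1a2 and Ogn were at 0, the sum was 95.9, 35.7, 329 and 112 FPKM. There, 7 of the 8 markers above 0 were highest in replicate 3, and the share over all symbols was not computed. Igf2 was the most abundant meninges marker by mean in both tissues. It read 55.5, 5.14, 134 and 31.9 FPKM in hippocampus replicates 1 to 4, a large part of the sum, and 240 FPKM in hypothalamus replicate 2. The mean level of the choroid plexus markers was likewise lowest in hippocampus replicate 2 (1.07) and highest in replicate 3 (5.51), in log2(FPKM + 1). Ptges and Alox15 were highest in hippocampus replicate 3 too, although Alox15 was second highest in replicate 2, where the meninges sum was lowest. Hpgds was highest in replicate 3 and nearly as high in replicate 4. Pla2g4a was highest in replicate 4 and lower in replicate 3 than in replicate 2. The part of meningeal tissue in these values was not tested.

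**Figure D4:**
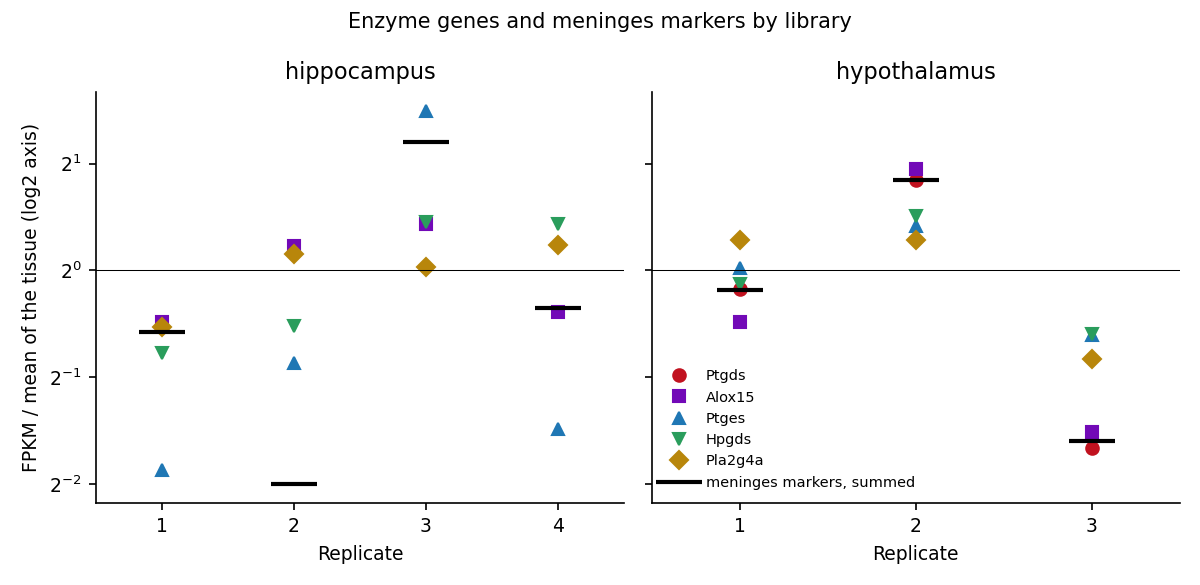
FPKM of 5 enzyme genes and the summed FPKM of the meninges markers (black bars) in each library, divided by the mean of the tissue (log2 axis). In hypothalamus all points are highest in replicate 2 and lowest in replicate 3, although for Pla2g4a replicates 1 and 2 nearly coincide. In hippocampus Ptges, Alox15, Hpgds and the meninges markers are highest in replicate 3, with Hpgds nearly as high in replicate 4, whereas Pla2g4a is highest in replicate 4.

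Other cell type lists moved less in hypothalamus. Replicate 2 was highest and replicate 3 lowest in the mean log2(FPKM + 1) of 6 of 9 cell type lists. Among single genes, beside the background of 8.9%, it held for 4 of 9 choroid plexus genes, 2 of 10 microglial, 1 of 7 myeloid, 1 of 7 astrocyte and 0 of 7 endothelial genes, and the summed endothelial level (93.0, 79.0 and 66.2 FPKM in replicates 1 to 3) did not have it. The range of the mean over the libraries was 1.82 for the meninges list, 0.73 for the myeloid, 0.38 for the choroid plexus, 0.33 for the endothelial, 0.22 for the astrocyte and 0.14 for the microglial list, while the oligodendrocyte, neuronal and mast cell lists had other orders. The oligodendrocyte list, of which all 9 markers were above 1 FPKM, ran from 8.13 to 8.42 in mean log2(FPKM + 1) over the hypothalamus libraries and from 7.71 to 8.01 over those of hippocampus. Over the genes found in both tables, the choroid plexus list stood between 1.60 and 2.11 in hypothalamus and between 1.07 and 5.51 in hippocampus, lowest in replicate 2, with Otx2 at 0 in both tissues. Blood and border myeloid markers, led by Lyz2, ran from 1.35 to 2.09 in hypothalamus, highest in replicate 2, and from 1.13 to 1.71 in hippocampus, highest in replicate 3. Ranges for the endothelial list were 3.03 to 3.36 and 3.28 to 3.76, for the 6 astrocyte markers common to the tissues 7.79 to 8.09 and 6.97 to 7.27, and for the neuronal list 6.51 to 6.83 and 6.82 to 7.23, in hypothalamus and hippocampus respectively. None of these parts in the enzyme values was tested.

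The wider pathway was taken from 3 lists: other phospholipases A2 and related hydrolases, other eicosanoid enzymes and carriers, and eicosanoid receptors. Together 37 of their genes were compared, of which 5 were called higher in hippocampus and 10 in hypothalamus, beside 14.5% and 13.4% of all compared symbols. Under all alternatives these 15 kept their direction, and 9 of them were called under each of the 3 other scalings. In FPKM as deposited the split was 3 to 10, and under upper-quartile and under median-ratio scaling it was 4 to 6. Over all 10736 compared symbols, calls in hippocampus and hypothalamus numbered 928 and 1819 in FPKM as deposited. They numbered 1119 and 1490 under upper-quartile and 1304 and 1283 under median-ratio scaling, against 1560 and 1439 in the main setting.

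Among 11 compared phospholipases and hydrolases, 3 were called higher in hippocampus, 2 in hypothalamus and 6 not, with a median difference of 0.41. Pla2g12a, a secreted enzyme, read 21.4 to 26.4 FPKM in hippocampus and 9.10 to 10.7 FPKM in hypothalamus. Pla2g4b, a relative of Pla2g4a, read 1.47 to 2.74 FPKM in hippocampus and was listed at 0 in 2 of the 3 hypothalamus libraries. Pafah1b2 and Pafah1b3 encode the catalytic subunits of the brain hydrolase that inactivates platelet-activating factor, and they separated in opposite directions. The 4 hippocampus libraries of Pafah1b2 averaged 71.8 ± 10.9 FPKM and the 3 hypothalamus libraries 38.8 ± 22.2 FPKM (SD), with the call lost in FPKM as deposited. Pafah1b3 read 6.37 ± 2.90 against 69.2 ± 18.8 FPKM.

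Pla2g2a, a secreted phospholipase of inflamed tissue, was at most 0.362 FPKM in hippocampus and read 1.81, 9.83 and 1.47 FPKM in hypothalamus, in the same order as the meninges markers. The most abundant genes of the list without a call were Plaat3, found under its older name Pla2g16, at 44.9 ± 16.7 and 60.6 ± 6.50 FPKM, and Pla2g7 at 45.7 ± 6.39 and 43.3 ± 12.8 FPKM, in hippocampus and hypothalamus (SD, n = 4 and n = 3).

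Of 20 compared further enzymes and carriers, 1 was called higher in hippocampus and 7 in hypothalamus, and 12 were not called, with a median difference of −0.76. The background shares for these counts are 14.5% and 13.4%. In the order of the meninges markers in hypothalamus stood 7 of the 25 genes of the list found there, of which 19 averaged at least 1 FPKM. That order held for 8.9% of hypothalamic symbols with at least 1 FPKM. Mgst2, Ephx1 and Cyp2j4 were among the 7, were called and were also highest in hippocampus replicate 3. Ltc4s, which joins glutathione to the leukotriene, read 25.8, 30.1 and 43.6 FPKM in hypothalamus and 3.66 to 8.47 FPKM in hippocampus, without overlap. Mgst2, with the same activity, read 11.0, 12.3 and 4.24 FPKM against at most 0.938 FPKM. Ggt5, which trims the glutathione, read 2.37 to 3.50 against 0.641 to 1.91 FPKM, and lost its call under upper-quartile and median-ratio scaling, without hippocampus replicate 4 and without hypothalamus replicate 2. Alox5ap, the membrane partner of Alox5, and Lta4h, the hydrolase for leukotriene A, were also higher in every hypothalamus library, by 0.57 and 0.88 on the log2 scale, under the limit for a call; neither was chosen by the naming rule, and both were picked after their values were seen.

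Ephx1, an epoxide hydrolase, read 48.7, 67.6 and 34.1 FPKM in hypothalamus and 8.28 to 18.8 FPKM in hippocampus. Aloxe3, a lipoxygenase relative, read 5.69 to 9.31 against 1.12 to 2.43 FPKM. Cyp2j4, an epoxygenase, read 1.80, 2.49 and 1.18 against 0.193 to 0.787 FPKM and was called under none of the other scalings, nor without hippocampus replicate 2 or hypothalamus replicate 2. Cbr1, a carbonyl reductase with 3 loci in each table, read 1.59 to 3.24 against 0.384 to 0.649 FPKM and lost its call under upper-quartile and median-ratio scaling and without hypothalamus replicate 3. Hpgd, the main enzyme of prostaglandin breakdown, was the gene higher in hippocampus, at 0.850 to 2.81 against 0.253 to 0.735 FPKM, but was called under none of the other scalings. Akr1b1, an aldose reductase that can form prostaglandin F, was the most abundant of the list and was higher in every hypothalamus library, at 67.7 ± 2.03 against 35.6 ± 5.07 FPKM, without reaching 2-fold. Its difference of −0.64 on the log2 scale rests on the locus chosen: hippocampus has a further Akr1b1 locus, and with the loci summed the tissues overlapped and the difference was 0.0032. As for Ptgs2, the further locus was at 0 in hippocampus replicate 1 alone, so the summed level of that library lacks it. Ptgr2, a prostaglandin reductase, read 25.0 ± 1.67 FPKM in hippocampus (SD, n = 4) and was not analysed here in hypothalamus.

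Receptor genes were low, and 6 of 16 listed were compared, with a median difference of −0.31. Ptger1, a receptor for prostaglandin E, read 2.82, 2.07, 2.65 and 1.89 FPKM in hippocampus, was listed at 0 in all 3 hypothalamus libraries and was called. A listed 0 need not mean a lack of transcript, since Col1a2 was at 0 in all 7 libraries beside Col1a1 at up to 71.9 FPKM, so no fold is given. Ptger2, another such receptor, read 1.78 to 2.54 FPKM in hippocampus and 3.98 to 6.16 FPKM in hypothalamus. It was not called, since its difference of −0.75 on the log2(rescaled FPKM + 1) scale is under 2-fold, although mean FPKM as deposited were 2.11 and 4.72. Ptger4 was called higher in hypothalamus, at 0.876 to 1.13 against 0.157 to 0.402 FPKM, but under none of the other scalings nor without hypothalamus replicate 2. Gpr17, a receptor of oligodendrocyte precursors reported to respond to leukotrienes, was the most abundant and overlapped, at 10.7 ± 4.49 and 13.1 ± 0.972 FPKM in hippocampus and hypothalamus (SD, n = 4 and n = 3).

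**Figure D5:**
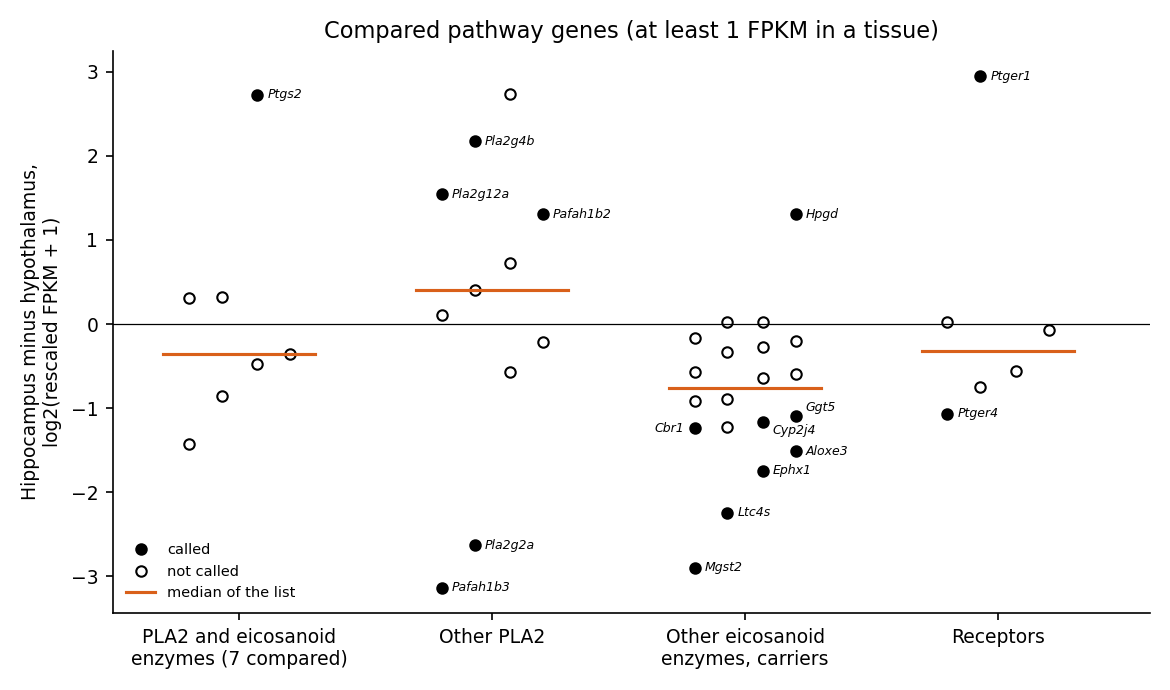
Difference between hippocampus and hypothalamus in mean log2(rescaled FPKM + 1) for each compared gene of 4 lists (filled points, called; open points, not called; orange line, median of the list). Called genes are named, and the value of Ptger1, listed at 0 in hypothalamus, rests on the added 1. Of 20 further enzymes and carriers, 7 called genes lie on the hypothalamic side and 1 on the hippocampal side.

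Genes with profiles most like those of Ptgs2 and Pla2g6, the 2 genes of the set in both tables with a mean of at least 5 FPKM, were sought over the 7 libraries. Profiles of log2(rescaled FPKM + 1) were centred on their means, and likeness was the largest difference in any library. For Ptgs2 the closest of 8467 symbols were Diras2 (0.26), Sstr4 (0.27) and Mt2A (0.28), and 41 symbols stayed within 0.5. In hippocampus and hypothalamus, Diras2 read 114 ± 12.6 and 20.9 ± 1.31 FPKM, Sstr4 read 9.46 ± 0.394 and 1.13 ± 0.234 FPKM, and Mt2A read 34.8 ± 3.22 and 5.21 ± 1.60 FPKM (SD, n = 4 and n = 3). For Pla2g6, whose profile had a range of 0.86 over the 7 libraries against 3.15 for Ptgs2, the closest were Carkd (0.11), Zfand2b (0.13) and Skiv2l (0.13), and 1034 symbols stayed within 0.5.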

How the data were processed

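Poly-A RNA of hippocampus (4 libraries) and hypothalamus (3 libraries) of DHA-fed rats was sequenced, per the labels' protocols. The authors deposited FPKM, in a separate table for each tissue. The submitters' processing notes name TopHat, TopHat2, Bowtie, Bowtie2, Cufflinks, Cuffdiff and genome rn5, with no role or version, and the annotation and strand setting are not given in the sources used here. Loci without an OK status in every library of a tissue were left out (86 and 24). Symbols were joined across tables, older names through RefSeq (GRCr8), with no coordinates converted. Symbols averaging 1 FPKM or more in either tissue were compared after rescaling, with a pseudocount of 1, which understates differences of low genes. No column of values lacked a sample. The 10 genes and all lists were chosen with earlier results of these data known. Named genes were the 10, the called and the 3 most abundant genes of each pathway list, the most abundant of marker lists, and the 3 genes most like 2 of the 10. Further marker and pathway genes outside this rule are named as examples, chosen with their values known. The call rule was also run on simulated data, for which no result is given here. How often it errs in these libraries was not tested. Python 3.11.15, numpy 2.4.6, pandas 2.3.3 and matplotlib 3.10.9 were used. Alternatives changed the pseudocount, scaling, filter, loci per symbol and libraries. Depth is unknown, so no counting error is given.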

Additional observations from a re-analysis of the deposited data

Results flagged for a closer look

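In groups of 4 libraries, a value was singled out when its gap to the nearest other library, divided by the whole range, exceeded Dixon's critical value. Of 46 hippocampal results with any range, 6 did so, where chance gives about 1 in 20, or 2.3, although genes and lists are not independent. Ptges was highest in replicate 3, at 1.41 FPKM against 0.137 to 0.275 FPKM, a ratio of 0.892. Ggt5 was highest in the same library, at 1.91 FPKM against 0.641 to 0.752 FPKM (ratio 0.913), and so was Ptger4, at 0.402 FPKM against 0.157 to 0.175 FPKM (ratio 0.927). The mean level of the further eicosanoid enzymes and carriers, a list that holds Ggt5, was highest there as well, at 2.03 against 1.85 to 1.87 in log2(FPKM + 1), a ratio of 0.873. This library had the most loci with at least 1 FPKM, 11308 against 10732 to 11126 in the other hippocampus libraries. It also had the highest summed meninges markers, 329 FPKM against 35.7 to 112 FPKM. It was highest too in the mean level of the choroid plexus (5.51), endothelial (3.76) and myeloid (1.71) markers. Of these lists 7, 5 and 5 genes were highest there, and the share over all symbols was not computed. The part of these tissues in the 4 results was not tested. Pla2g4b was highest in replicate 1, at 2.74 FPKM against 1.47 to 1.52 FPKM (ratio 0.956). Pla2g7 was highest in replicate 2, at 55.2 FPKM against 41.8 to 42.8 FPKM (ratio 0.922).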

How the results depend on the processing

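Of 128 alternative values for the 8 tissue differences, leaving out the filter settings, which cannot change them, 120 moved by less than the larger SD among replicates, 8 by more (Ptgs1 and Ptgs2 alone), and no called gene changed direction; Hpgds, at 0.09 on the log2 scale, changed sign under 6 of 16. The count of separated genes went from 2 to 1 with a filter at 5 FPKM, which leaves 2 genes to compare, to 4 without replicate 1 of both tissues, and to between 2 and 4 without 1 library. The share of all symbols that were separated was 52.6%, and rose to 73.9% without replicate 1 of both tissues and to between 53.9% and 66.1% without 1 library. The count of called genes was 1 to 3 without 1 library, where 27.2% to 32% of all symbols were called, and 2 without hippocampus replicate 3 and hypothalamus replicate 2 together (29.5% of all symbols), an alternative chosen after seeing the data. Other pathway genes called numbered 9 (3 in hippocampus, 6 in hypothalamus) with a pseudocount of 5 and 7 (2 and 5) with the 5 FPKM filter, which leaves 18 of 37 to compare, and 12 to 17 without 1 library. Over all symbols, 27.9% were called, against 20.1% with a pseudocount of 5 and 28.6% with that filter. FPKM as deposited gave 3 higher in hippocampus, where 928 of 10736 symbols were called so, and moved the median of all compared symbols from 0.05 to −0.21. Upper-quartile and median-ratio scaling each gave 6 of 37 higher in hypothalamus, where 1490 and 1283 of 10736 symbols were called so. The median SD of the genes among replicates was 0.21 in hippocampus and 0.26 in hypothalamus. It became 0.33 and 0.49 with a pseudocount of 0.1, and 0.0858 and 0.142 with a pseudocount of 5. Libraries share replicate numbers across tissues, but the deviations of same-numbered libraries from their group means were not positively correlated. Their r was -0.12, -0.18 and -0.27 across symbols, which are not independent, and the numbers were not used as pairs. The highest r, 0.39, was for hippocampus replicate 3 with hypothalamus replicate 2. Such deviations cancel out within a group, so they cannot show whether libraries share an animal. In each tissue replicate 1 had many lower loci listed at 0 there alone (171 and 113, not matched between the tables), and the cause was not tested. With the replicate block, as a mean difference within numbers 1 to 3, Ptgs2 was 2.78, Ptgs1 -0.53, Pla2g6 0.47, Pla2g4a 0.25, Hpgds -0.03, Ptges -1.27, Alox5 -0.41 and Alox15 -0.76.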

Other observations

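A pair of further genes of the pathway, chosen after their values were seen, varied widely among libraries of a tissue. Pla2g5, a secreted phospholipase, read 8.73, 0.676, 12.9 and 9.23 FPKM in hippocampus replicates 1 to 4 and at most 1.04 FPKM in hypothalamus. Choroid plexus markers were lowest in the same hippocampus library, with Ttr at 4651, 31.9, 5771 and 1967 FPKM. Ptgis, the prostacyclin synthase, read 4.71, 8.18 and 1.55 FPKM in hypothalamus replicates 1 to 3, in the order of the meninges markers. In hippocampus it read at most 1.55 FPKM at the locus used, of 2 listed there against 1 in hypothalamus. The part of adjoining tissue in these values was not tested.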
